A study of Mus musculus with 10 samples.

Results

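Iron transport and storage genes were followed in the hypothalamus of mice bearing C26, a transplanted colon adenocarcinoma that serves as a model of cancer cachexia. The set held 10 genes chosen by name, Trf, Tfrc, Slc11a2, Fth1, Slc40a1, Cp, Hamp, Hmox1, Aco1 and Ireb2, out of 18820 genes with a probe set of their own on the array. The genes were chosen with earlier results of these data known. Each gene stood on the brightest probe set annotated to it alone, and Fth1 was the one member with a second such probe set. The arrays measured total hypothalamic RNA from male CDF1 mice, a cross of BALB/c with DBA/2, listed as 10 to 11 weeks old. Tumour-bearing mice had received 1000000 cultured C26 cells under the skin of the flank in 0.2 ml of balanced salt solution, and controls the same volume without cells. Both groups were injected under general anaesthesia, were housed singly with food freely available, and were killed on day 20. Individual arrays covered 5 tumour-bearing mice and 3 control mice. A further array held RNA pooled from 5 tumour-bearing mice and another held RNA pooled from 4 control mice. Whether the pooled mice are those on the individual arrays is not given, and the pools stand beside the tests as values. Levels are log2 values made by the authors with RMA, a method that sets the arrays it is run on to a common distribution; whether the pools and the individual arrays went through a single run is not given.

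Cells take up iron bound to transferrin (Trf), which docks on the transferrin receptor (Tfrc) and is drawn into endosomes, from which the divalent metal transporter Slc11a2 passes the iron to the cytosol. Ferritin, with the heavy chain Fth1, stores it, and ferroportin (Slc40a1) exports it with the help of copper ferroxidases such as ceruloplasmin (Cp). Hepcidin (Hamp) makes cells degrade ferroportin, heme oxygenase 1 (Hmox1) frees iron from heme, and the iron regulatory proteins Aco1 and Ireb2 bind stem-loops in transcripts of this pathway when iron is short. In the brain, oligodendrocytes are rich in iron and make transferrin themselves, and iron enters across the endothelium of brain vessels. Inflammation is known to raise hepcidin in the liver through interleukin 6 and Stat3.

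Of the 10 genes, 9 were above the detection level of 4.32 (20 on the linear scale) on all 8 individual arrays and were tested, while Hamp lay below it on all 8. None of the 9 passed the threshold of 0.05 on limma p-values adjusted by the Benjamini-Hochberg method, counting all 22837 tested probe sets. Of all 12978 tested genes 0.0771% passed. At an unadjusted p under 0.05 the count was 3 of 9, all lower in tumour-bearing mice (Trf, Slc40a1 and Aco1), against 10.3% of all tested genes by this rule in either direction and 6.51% lower. For the same 3 genes every tumour-bearing mouse lay below every control, a pattern that held for 5.19% of all tested genes, while 0 of 9 lay above all controls against 3.11%. These counts come from the same values, and the genes were chosen with earlier results known. They are therefore no test of the set against all genes. The other 6 overlapped between the groups, with differences between -0.01 and 0.07 on the log2 scale. The median difference of the 9 genes was 0.001, against -0.01 over all tested genes.

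**Figure D1:**
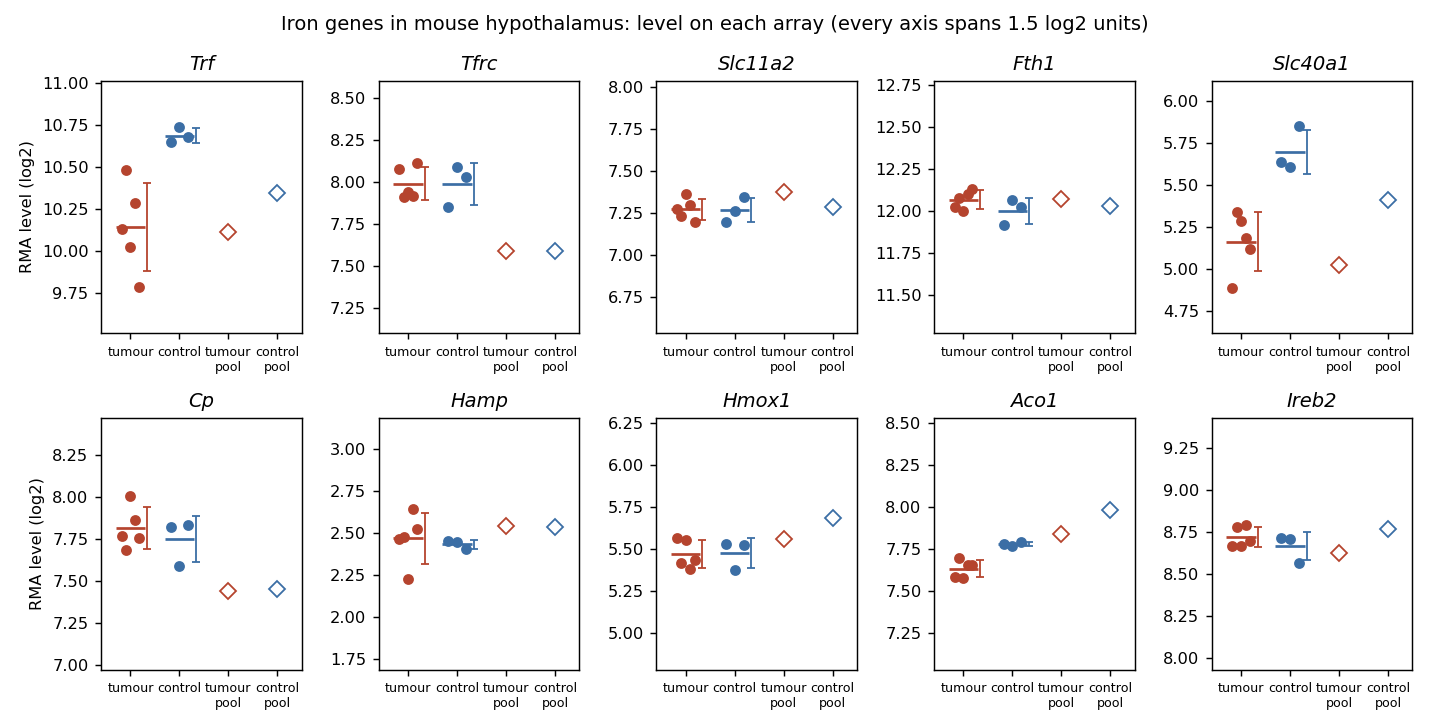
Level of each of the 10 iron genes on each array (y axis, log2 RMA level, every axis spanning 1.5 units), with filled points for individual mice, a bar for the group mean, an error bar for 1 SD beside it, and open diamonds for the pooled arrays. Trf, Slc40a1 and Aco1 are the genes in which all 5 tumour-bearing mice lie below all 3 controls.

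The dissections were compared by markers of the labelled tissue and its neighbours, each list given as the mean level of its tested members per mouse. The 8 markers of hypothalamic neurons averaged 8.14 to 8.43 in tumour-bearing mice and 8.00 to 8.21 in controls, with Hcrt at 10.76 ± 0.15 (SD, n = 5) and 10.73 ± 0.02 (SD, n = 3) and Oxt at 9.82 ± 0.23 and 9.16 ± 0.42. Of the 8, 6 had a difference above 0 and 2 below, with a median of 0.24. The 5 tested midbrain and raphe markers averaged 5.55 to 7.10 in tumour-bearing mice and 6.93 to 7.70 in controls, with Slc6a3 at 8.23 ± 1.26 (SD, n = 5) and 9.81 ± 0.10 (SD, n = 3) and Th at 8.48 ± 0.41 and 9.40 ± 0.16. All 5 had a difference below 0, with a median of -1.20. The controls were not alike on every marker. Slc6a4, chosen after its values were seen, was at 3.78 in control 1 against 6.45 and 5.93 in controls 2 and 3. In tumour-bearing mice it was at 3.56 to 4.34. The 3 tested pituitary markers averaged 5.41 to 7.99 in tumour-bearing mice and 4.93 to 5.64 in controls, Cga differing by 0.59. Cga was at 7.71 in control 1, near the 7.88 and 7.80 of tumour-bearing mice 3 and 4, and at 6.29 and 6.10 in controls 2 and 3. Gh, growth hormone, stood at 10.45 and 10.48 in tumour-bearing mice 3 and 4, with the other individual arrays between 4.21 and 5.51. The leading results among the 10 iron genes are therefore also given without these 2 mice. None of the markers on these 3 lists passed the threshold, and the part of neighbouring tissue in the iron gene values was not tested.

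Transferrin and ferroportin had the largest differences among the 10 iron genes, of about the same size. Trf levels were 10.13, 10.48, 10.02, 10.28 and 9.79 in tumour-bearing mice 1 to 5, against 10.65, 10.73 and 10.68 in controls 1 to 3. The controls lay close together, while the tumour-bearing mice were spread over a far wider range and stayed below them, mouse 2 being nearest and mouse 5 lowest. The means were 10.14 ± 0.26 (SD, n = 5) and 10.69 ± 0.04 (SD, n = 3), a difference of -0.54 ± 0.13 (SE), which corresponds to 0.685 times the control level with a 95% interval of 0.561 to 0.838. The adjusted p was 0.246 (limma), so the difference did not pass the threshold. Without mice 3 and 4 it was -0.55. In whole tissue, fewer cells of a type and less RNA per cell cannot be told apart.

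The receptor for transferrin had a difference close to 0. Tfrc was at 8.08, 7.91, 7.94, 7.92 and 8.11 in tumour-bearing mice and at 7.85, 8.09 and 8.03 in controls. Mice of both groups were interleaved, with control 1 the lowest and tumour-bearing mouse 5 the highest. The difference was 0.001 ± 0.072 (SE), with a 95% interval of -0.16 to 0.16 that leaves room for a level between 0.895 and 1.12 times that of controls (limma adjusted p = 0.999). Its sign was set by single mice: leaving out control 1 gave -0.07, and leaving out tumour-bearing mice 1 and 5 in turn gave -0.02 and -0.03.

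Slc11a2, which carries ferrous iron out of endosomes, was at 7.27, 7.24, 7.36, 7.30 and 7.20 in tumour-bearing mice and at 7.20, 7.26 and 7.34 in controls. The groups covered nearly the same narrow range. The difference was 0.005 ± 0.058 (SE), with a 95% interval of -0.12 to 0.13 (limma adjusted p = 0.987). Leaving out control 1 gave -0.03, and leaving out tumour-bearing mice 3 and 4 in turn gave -0.02 and -0.002.

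Storage was represented by Fth1, the ferritin heavy chain that oxidises iron as it enters the ferritin shell. Its level was 12.02, 12.08, 12.00, 12.10 and 12.13 in tumour-bearing mice and 11.91, 12.06 and 12.02 in controls. Tumour-bearing mice 2, 4 and 5 lay above all controls and the other 2 within their range. The difference was 0.07 ± 0.04 (SE), with a 95% interval of -0.03 to 0.17 (limma adjusted p = 0.642), and 0.02 with control 1 left out. The second probe set annotated to Fth1 was much dimmer, at 4.28 to 4.75 in tumour-bearing mice and 4.29 to 4.65 in controls, and differed by 0.10 ± 0.15 (SE; limma adjusted p = 0.871). Ferritin heavy chain has many processed pseudogenes in the mouse, and whether either probe set reads them was not tested.

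Ferroportin, the only known cellular iron exporter, was lower by about as much as transferrin. Slc40a1 was at 4.89, 5.34, 5.28, 5.18 and 5.12 in tumour-bearing mice, against 5.64, 5.61 and 5.85 in controls. Every tumour-bearing mouse lay below every control, with a gap of 0.27 between the highest tumour-bearing mouse (mouse 2) and the lowest control (control 2), and mouse 1 was the lowest. The means were 5.16 ± 0.18 (SD, n = 5) and 5.70 ± 0.13 (SD, n = 3). The difference of -0.53 ± 0.12 (SE) corresponds to 0.690 times the control level with a 95% interval of 0.571 to 0.835, and did not pass the threshold (limma adjusted p = 0.226). It was -0.58 without mice 3 and 4.

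Ceruloplasmin, the ferroxidase that loads exported iron onto transferrin, had groups that overlapped. Cp was at 7.76, 7.68, 8.00, 7.86 and 7.75 in tumour-bearing mice and at 7.82, 7.59 and 7.83 in controls. The highest value was in tumour-bearing mouse 3 and the lowest in control 2, with the rest intermixed. The difference was 0.07 ± 0.08 (SE), with a 95% interval of -0.12 to 0.25 (limma adjusted p = 0.836). It was -0.01 without control 2 and -0.01 without tumour-bearing mice 3 and 4.

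Hamp encodes the peptide hormone hepcidin, which is made mainly in liver. Its promoter is shown because it carries the elements through which inflammation and BMP signalling are known to act on this gene, while its transcript stayed under the detection level in both groups. The stretch lies on the minus strand at chr7:30944098-30944158 of GRCm38.p6, upstream of the gene start, and is taken from RefSeq. Capitals mark a match to the Stat motif TTCNNNGAA, which begins 97 bases before the start, and a match to the BMP response motif GGCGCC, which begins 109 bases before it.
Hamp: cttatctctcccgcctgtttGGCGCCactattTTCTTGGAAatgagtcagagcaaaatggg
Both strands were searched in windows of 250 bases before to 50 bases after gene starts. The Stat motif was in 8.30% and the BMP motif in 11.9% of all 32851 windows. Of the 6 member genes with a window, Hamp alone held the Stat motif, and Hamp and Tfrc held the BMP motif. A match is a stretch of letters and not a shown binding site.

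The Hamp level was 2.47, 2.48, 2.23, 2.65 and 2.52 in tumour-bearing mice and 2.46, 2.45 and 2.41 in controls. All 8 values lay far below the detection level of 4.32, and tumour-bearing mice were both the lowest and the highest. The means were 2.47 ± 0.15 (SD, n = 5) and 2.44 ± 0.03 (SD, n = 3), and the pools were at 2.54 each. A rise of hepcidin RNA from a level the array does not register to another such level cannot be seen here. The mouse genome carries a close copy, Hamp2, and whether the probe set separates the copies was not tested.

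Hmox1, which releases iron, carbon monoxide and biliverdin from heme and is induced by heme and oxidative stress, was at 5.56, 5.42, 5.55, 5.38 and 5.44 in tumour-bearing mice. In controls it was at 5.53, 5.38 and 5.53. The ranges were almost the same. The difference was -0.01 ± 0.09 (SE), with a 95% interval of -0.21 to 0.19 (limma adjusted p = 0.990). Its sign also turned with single mice left out, reaching 0.02 without control 1.

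Of the iron regulatory proteins, Aco1 had separate groups and Ireb2 did not. Aco1, which is a cytosolic aconitase when it holds an iron-sulphur cluster and an RNA-binding regulator when it does not, was at 7.58, 7.69, 7.58, 7.66 and 7.65 in tumour-bearing mice. In controls it was at 7.78, 7.77 and 7.79. The groups did not overlap, but the gap between them was only 0.07. The means were 7.63 ± 0.05 (SD, n = 5) and 7.78 ± 0.01 (SD, n = 3), a difference of -0.15 ± 0.05 (SE) or 0.904 times the control level, with a 95% interval of 0.842 to 0.971 (limma adjusted p = 0.327, not past the threshold). It was -0.14 without mice 3 and 4.

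Ireb2, whose protein is degraded when iron is plentiful and which has no aconitase activity, was at 8.67, 8.78, 8.67, 8.80 and 8.70 in tumour-bearing mice and at 8.72, 8.71 and 8.57 in controls. Control 3 was the lowest array and tumour-bearing mouse 4 the highest. The difference was 0.06 ± 0.05 (SE), with a 95% interval of -0.06 to 0.17 (limma adjusted p = 0.762), and 0.007 without control 3. The array reads RNA, whereas both regulatory proteins are known to be controlled largely after translation.

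**Figure D2:**
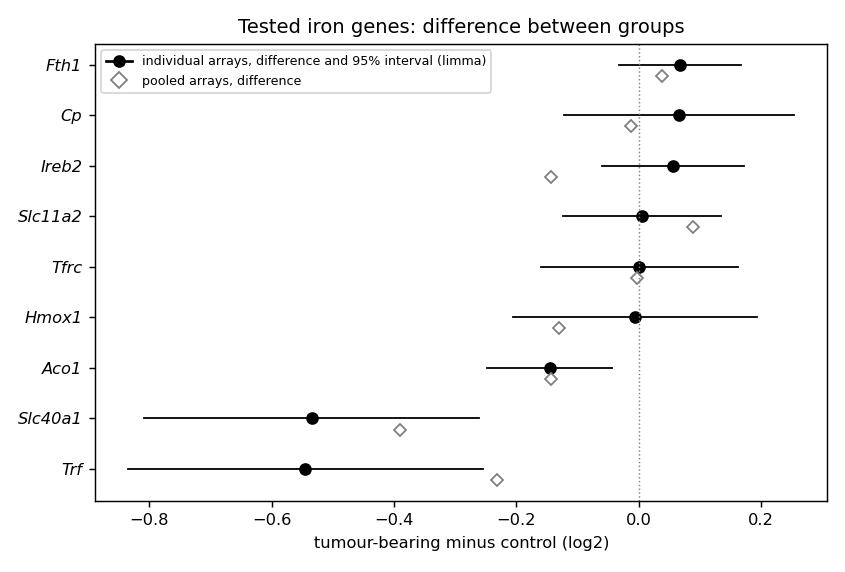
Difference of each of the 9 tested iron genes between tumour-bearing and control mice (x axis, log2), with filled points and lines for the limma estimate and its 95% interval over the 8 individual arrays and open diamonds for the difference of the 2 pooled arrays. The intervals of Trf, Slc40a1 and Aco1 lie below 0 before adjustment for the number of genes tested, and their pool differences are also below 0.

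The pools, with 1 array a group and so no test, were set beside these values. Slc40a1 was 5.02 in the tumour-bearing pool and 5.41 in the control pool, a difference of -0.39. Trf was 10.11 and 10.34, a difference of -0.23. Aco1 was 7.84 and 7.98, a difference of -0.14, close to that of the individual arrays. All 3 genes with separate groups were also lower in the tumour-bearing pool. The control pool's Trf nevertheless lay below all 3 individual controls and within the range of the tumour-bearing mice. Its Slc40a1 also lay below all 3 individual controls, though above every tumour-bearing mouse. Among pituitary markers, the tumour-bearing pool had high Gh, as mice 3 and 4 did, at 9.82 against 4.37 in the control pool. Prl, prolactin, which was not among the tested genes, was at 6.84 against 2.98, and Lhb was at 5.49 against 4.90. Cga went the other way, at 7.65 in the tumour-bearing pool against 7.83 in the control pool. The part of pituitary RNA in the pool differences was not tested. Ireb2 and Hmox1 were lower in the tumour-bearing pool as well, by -0.14 and -0.13, with no such difference among individual mice. Tfrc differed by -0.003, Cp by -0.01, Fth1 by 0.04 and Slc11a2 by 0.09. The pools stood apart from the individual arrays in level for some genes: both were below all 8 individual arrays for Tfrc (7.59 each) and Cp (7.44 and 7.45), and both were above all 8 for Aco1.

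The mice ranked differently on the 3 lower genes. Mouse 2 was the tumour-bearing mouse nearest to the controls for Trf, Slc40a1 and Aco1 alike. The lowest mouse was number 5 for Trf, number 1 for Slc40a1 and number 3 for Aco1. The SD among tumour-bearing mice exceeded that among controls for all 3 genes, at 0.26 against 0.04 for Trf, 0.18 against 0.13 for Slc40a1 and 0.05 against 0.01 for Aco1, and with 3 controls these SDs are themselves imprecise.

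Markers of myelin-forming oligodendrocytes, which make transferrin, were lower beside Trf. All 9 tested markers of 11 listed had a difference below 0, with a median of -0.45 and a range of -0.95 to -0.02, and 0 passed the threshold over all genes. Their mean level spanned 8.311 to 8.978 in tumour-bearing mice and 9.002 to 9.103 in controls. Cnp, an abundant myelin enzyme, was at 10.21 ± 0.22 (SD, n = 5) and 10.48 ± 0.05 (SD, n = 3). Mobp, a myelin protein, was at 9.99 ± 0.18 (SD, n = 5) and 10.01 ± 0.06 (SD, n = 3).

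Mouse by mouse, Trf and the mean of these markers came in the same order among tumour-bearing animals, from mouse 5 through mice 3, 1 and 4 to mouse 2. A similar order was not limited to oligodendrocyte markers. The midbrain and raphe mean was also highest in mouse 2, at 7.10, and lowest in mice 3 and 5, at 5.55 and 6.20. Mice 1 and 4 lay between, at 6.32 and 6.30. Single markers did not all share it: for Mobp, mouse 3 had the lowest level and mouse 1 the highest. Slc40a1 and Aco1 did not follow that order: the marker mean was lowest in mouse 5, but Slc40a1 was lowest in mouse 1 and Aco1 in mouse 3. The genes most like Trf over the 8 individual arrays were Gpr37 (Pearson r = 0.996), Rasgrp3 (r = 0.995) and Aspa (r = 0.994), of which Aspa is on the oligodendrocyte list and Gpr37 is known from oligodendrocytes. These are the highest correlations among all tested genes, over 8 arrays that also share the group difference, and are a description. The genes most like Slc40a1 were Atp1b3 (r = 0.985), Dgka (r = 0.972) and Lrrc55 (r = 0.970). Those most like Cp were Zfp322a (r = 0.989), Zfp9 (r = 0.967) and Mtr (r = 0.966). The part of oligodendrocyte number or RNA in the lower Trf was not tested.

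**Figure D3:**
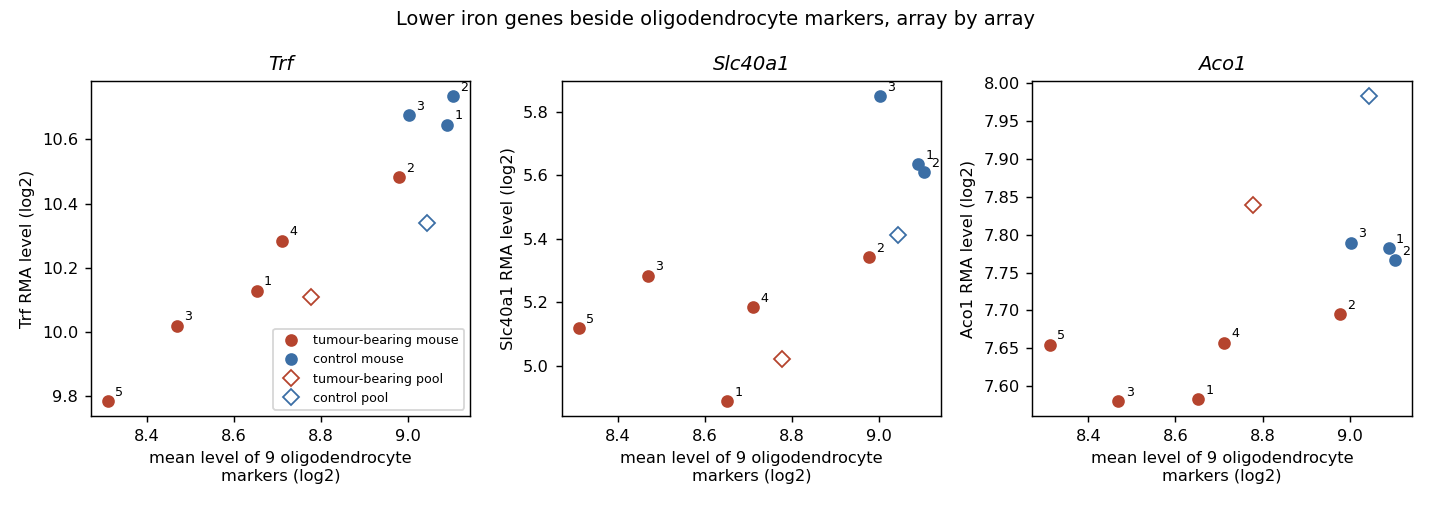
Levels of Trf, Slc40a1 and Aco1 (y axes, log2 RMA level) against the mean level of the 9 tested oligodendrocyte markers (x axes, log2) on each array, with numbers for individual mice and open diamonds for the pools. Trf and the marker mean are lowest in tumour-bearing mouse 5 and highest in control 2, while the lowest Slc40a1 and Aco1 values are in tumour-bearing mice 1 and 3.

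Other cells that handle iron were given by the same kind of list. The 9 tested microglia and macrophage markers averaged 5.83 to 6.14 in tumour-bearing mice and 6.04 to 6.14 in controls, with 7 of 9 below 0 and a median difference of -0.16. Of these, Csf1r was at 7.43 ± 0.16 (SD, n = 5) and 7.59 ± 0.04 (SD, n = 3), and Cx3cr1 at 6.48 ± 0.26 and 6.78 ± 0.17. The 8 endothelial markers averaged 7.15 to 7.41 and 7.18 to 7.47, with a median difference of -0.06. The brightest endothelial markers, Slc2a1 and Flt1, differed by 0.14 and 0.05, and the other 6 were below 0. Chosen after their values were seen, Slco1c1, a thyroid hormone transporter of brain vessels, differed by -0.35 ± 0.09 (SE), with all tumour-bearing mice below all controls, Tek by -0.26 ± 0.11 and Kdr by -0.26 ± 0.13. The 7 astrocyte markers averaged 9.55 to 9.71 and 9.67 to 9.75, with 3 above 0, 4 below and a median difference of -0.01. The brightest, Aldoc and Slc1a2, differed by 0.04 and -0.01. Also chosen after its value was seen, Aqp4, the water channel of astrocyte endfeet, differed by -0.51 ± 0.11 (SE), with all tumour-bearing mice below all controls and a pool difference of -0.52, while Slc1a3 differed by 0.13 ± 0.04. The 5 choroid plexus markers averaged 5.71 to 6.20 and 5.80 to 6.09, with Kcnj13 and Ttr differing by -0.24 and 0.34. None of the markers on these lists passed the threshold, Cd163 was below the detection level on all 8 arrays, and the part of these cells in the iron gene values was not tested.

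A wider set of 59 iron genes covered the steps around the 10. Of these, 54 had a probe set of their own and 43 were tested, with 0 passing the threshold in either direction. At an unadjusted p under 0.05 there were 1 higher and 3 lower, against 3.78% and 6.51% of all tested genes. The groups did not overlap for 1 higher and 2 lower of the 43, against 3.11% and 5.19% of all tested genes. The median difference was -0.01, the same to 2 decimals as over all tested genes. The 9 genes below the detection level on all 8 arrays included the haptoglobin gene Hp, the hemopexin gene Hpx and the scavenger receptor gene Cd163, whose products clear free haemoglobin and heme from blood.

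Among 5 tested genes of uptake and reduction, Steap2, a ferrireductase, was at 7.54, 7.66, 7.57, 7.66 and 7.49 in tumour-bearing mice and at 7.65, 7.98 and 7.82 in controls. Control 1 lay within the range of the tumour-bearing mice, and the difference was -0.24 ± 0.08 (SE; limma adjusted p = 0.339). Steap3, the ferrireductase of erythroid endosomes, differed by -0.17 ± 0.10 (SE). The 3 tested storage and delivery genes stayed close to 0, with Ftl1, the ferritin light chain, at 0.03 ± 0.08 (SE) and the iron chaperone Pcbp1 at 0.06 ± 0.05 (SE). Heph, the membrane ferroxidase hephaestin, differed by 0.02 ± 0.12 (SE), a value that was -0.06 with tumour-bearing mouse 1 left out.

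In the hepcidin pathway the 14 tested genes, covering BMP ligands, receptors, Smad proteins and Stat3, had differences between -0.15 and 0.08 and a median of -0.03, with 0 at an unadjusted p under 0.05. Smad7, an inhibitor of BMP signalling, differed by -0.15 ± 0.09 (SE), and Bmp6, the ligand that links liver iron to hepcidin, by -0.13 ± 0.13 (SE). Of 7 tested genes for heme and haemoglobin handling, 6 were below 0. Slc48a1, a heme transporter of lysosomes, differed by -0.13 ± 0.05 (SE; limma adjusted p = 0.438) and Blvrb, biliverdin reductase B, by -0.12 ± 0.08 (SE).

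Genes of mitochondrial iron use divided evenly, with 5 of 9 above 0. Glrx5, a carrier in iron-sulphur cluster assembly, was at 7.98, 7.99, 7.91, 7.86 and 7.90 in tumour-bearing mice, all below the 8.08, 8.02 and 8.17 of controls, and differed by -0.16 ± 0.05 (SE; limma adjusted p = 0.338). Slc25a37, mitoferrin 1, which feeds iron to mitochondria in red cell precursors, differed by 0.26 ± 0.15 (SE), a value that was 0.13 with tumour-bearing mouse 3 left out. On the list of regulatory protein control and transcripts with iron-responsive elements, Fbxl5, the ubiquitin ligase subunit that targets Ireb2, was at 7.86 to 8.00 in tumour-bearing mice, all below the 8.02 to 8.07 of controls, and differed by -0.10 ± 0.05 (SE; limma adjusted p = 0.527).

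Alas2 had the largest difference of the wider set. It encodes the first enzyme of heme synthesis in red cell precursors and its transcript carries an iron-responsive element. Levels were 6.02, 5.89, 7.77, 6.43 and 5.62 in tumour-bearing mice, all above the 5.21, 5.02 and 4.59 of controls. The difference was 1.41 ± 0.42 (SE; limma adjusted p = 0.306, not past the threshold) and 1.32 between the pools. Mice 3 and 4, which had high Gh, had the highest Alas2 levels. Mice 1, 2 and 5, at 6.02, 5.89 and 5.62, also lay above all 3 controls. The size of the difference without mice 3 and 4 is not given here. The tumour-bearing pool also had high Gh, at 9.82. Slc4a1, the red cell anion exchanger and the other tested red cell marker, was at 4.43, 4.35, 5.96, 4.29 and 4.02 in tumour-bearing mice and at 3.72, 4.03 and 3.62 in controls, with all 3 controls and 2 tumour-bearing mice below the detection level. Mouse 3 was the highest for Alas2, Slc4a1 and Slc25a37. The part of red cell RNA in the Alas2 difference was not tested.

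**Figure D4:**
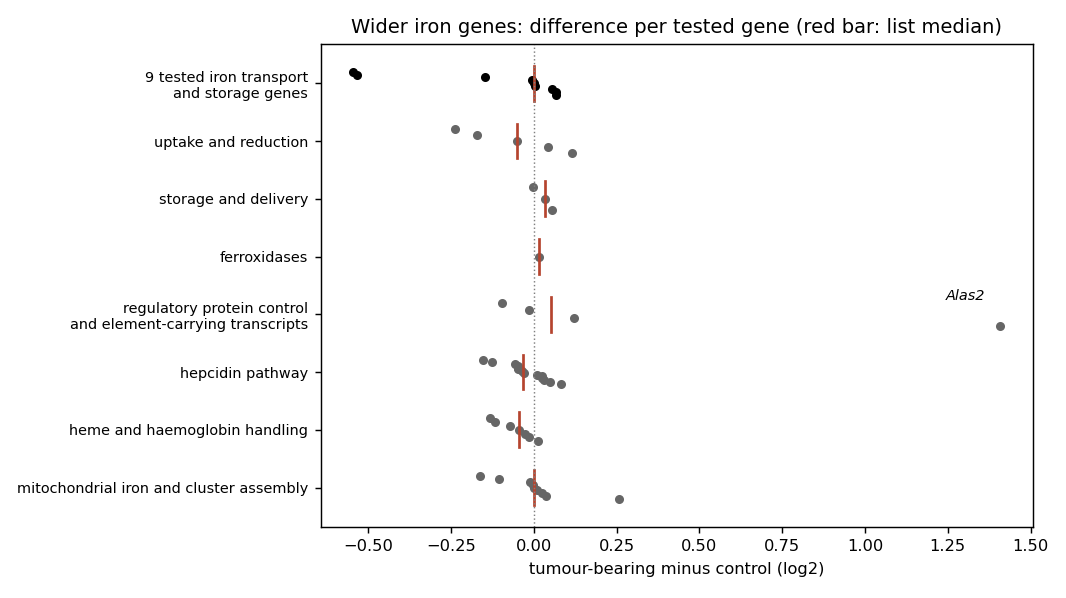
Difference between tumour-bearing and control mice (x axis, log2) for each tested gene of the 10 and of the 7 wider iron lists (rows), with a red bar at each median. Apart from Alas2 at 1.41, the wider genes lie between -0.24 and 0.26.

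**Figure D5:**
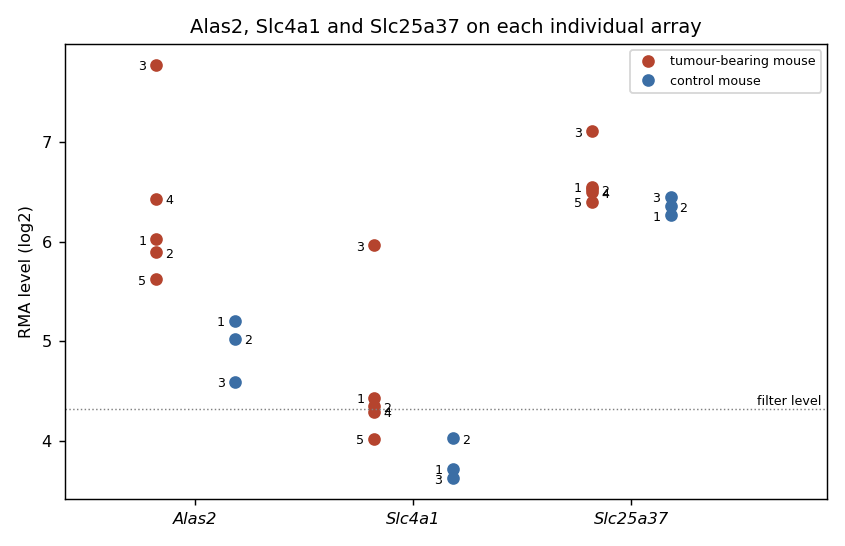
Levels of Alas2, Slc4a1 and Slc25a37 (y axis, log2 RMA level) in each individual mouse, numbered, with the detection level of 4.32 dotted. Tumour-bearing mouse 3 is the highest for each of the 3 genes, and all tumour-bearing mice lie above all controls for Alas2 alone.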

How the data were processed

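The authors deposited log2 expression levels. They list RMA, per the submitters' processing notes. An RMA version was not given in the sources used here. The values' range was the basis for reading them as log2. Probe sets differ in brightness and in how far they compress fold changes, so levels of different genes were not compared. Precision is limited by the number of arrays. Array medians were 5.30 to 5.32 on individual arrays and 5.28 on both pools.

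Of 35556 probe sets, 21218 were paired with 1 gene, 1881 with several and 12457 with none here. The test took in the 22837 probe sets (12978 genes) that exceeded 20, unlogged, on 3 or more of 8 individual arrays, by limma 3.58.1 in R 4.3.3 (lmFit, eBayes with intensity trend). This is the detection level of the text. The fit was tested on simulated data. Symbols and promoters came from RefSeq tables of GRCm38.p6, with promoter windows for 6 of the 10 genes; no coordinates of probe sets are given.

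The members and lists were chosen with earlier results of these data known. Named genes are the 10, the 2 smallest p-values of each wider list, the 3 most alike to the 3 tested members with the widest range, and the 2 brightest markers of each list. Some further markers were named outside this rule. A further 19 alternatives changed the filter, variance model, array weights, normalization, replicate block, pools, probe sets and mice left out. Figures were drawn with matplotlib 3.10.9.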

Additional observations from a re-analysis of the deposited data

Results flagged for a closer look

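Among 25 probe sets named in the text, 4 had a tumour-bearing mouse set apart from the other 4 by more than Dixon's 95% limit for 5 values (a gap over 0.71 of the range), where chance flags about 1 group in 20. Mouse 3 was set apart for Slc25a37 at 7.11, with the others at 6.40 to 6.55 and controls at 6.26 to 6.45, and for Slc4a1 at 5.96, with the others at 4.02 to 4.43 and controls at 3.62 to 4.03. It was also the lowest for the dimmer Fth1 probe set, at 4.28 against 4.62 to 4.75 in the other tumour-bearing mice. Mouse 1 was set apart for Heph at 5.93, with the others at 5.45 to 5.58 and controls at 5.47 to 5.71. None of the 10 genes, on its brightest probe set, had such a mouse.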

How the results depend on the processing

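Over 19 alternatives 0 iron members and 0 of the wider iron genes passed the threshold. Trf, Slc40a1 and Aco1 stayed below 0 in every one, at -0.63 to -0.46, -0.58 to -0.46 and -0.16 to -0.13. Their adjusted p came nearest to the threshold with the test restricted to single-gene probe sets for Trf (0.0569, with 0.0569 to 0.631 over all alternatives) and Slc40a1 (0.0584, with 0.0584 to 0.739), and with array weights for Aco1 (0.248 to 0.828). Fth1 and Ireb2 stayed above 0.

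The small differences of 4 genes changed sign. Tfrc was -0.0637 with array weights, -0.0142 with the replicate block, and -0.0686 to 0.0503 with single mice left out (-0.0686 without control 1, -0.0207 and -0.0294 without tumour-bearing mice 1 and 5). Slc11a2 was -0.00038 with array weights, -0.0333 without tumour-bearing mice 3 and 4, and -0.0290 to 0.0425 with single mice left out (-0.0290 without control 1, -0.0171 and -0.00168 without tumour-bearing mice 3 and 4 in turn). Hmox1 was 0.0121 with array weights, 0.00303 with quantile normalization, 0.0348 with the replicate block, and -0.0569 to 0.0194 with single mice left out (0.0194 and 0.0178 without controls 1 and 3, 0.00665, 0.0158 and 0.00209 without tumour-bearing mice 2, 4 and 5). Cp was -0.0132 without tumour-bearing mice 3 and 4 and -0.0126 to 0.108 with single mice left out (-0.0126 without control 2).

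Over all genes the count of 10 was 3 without the filter, 3 without the intensity trend, 17 with array weights, 68 with only probe sets of 1 gene, 0 without tumour-bearing mice 3 and 4, 0 with the replicate block, and 0 to 53 with single mice left out (lowest without control 3, highest without tumour-bearing mouse 2). The labels give same-numbered mice no pairing beyond the number. Correlations of their deviations were -0.09, -0.03 and -0.04, which cannot exclude something shared by same-numbered arrays. With the replicate block Trf was -0.47, Slc40a1 -0.53 and Aco1 -0.16. The causes of these changes were not tested.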
